A study of Mus musculus with 4 samples.

Results

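The 10 genes described here belong to the nuclear lamina and the nuclear envelope and were followed in mouse T cells: the lamin genes Lmna, Lmnb1 and Lmnb2, the inner membrane protein genes Lbr, Emd and Tmpo, and the linker genes Sun1, Sun2, Syne1 and Syne2. They were picked by name and function from the 23480 gene identifiers listed for each library, and all 10 were found through their Entrez identifiers. RNA was sequenced in 4 libraries of T cells, 2 grown under the condition labelled Th9+TLA1 and 2 under the condition labelled Th9, so both groups share the Th9 condition and differ in the added agent. The labels write TLA1 where the series title writes TL1A, a cytokine of the TNF superfamily, and they give no mouse strain, age, dose or culture time. The Th9 subset of helper T cells is defined by its secretion of interleukin 9. The labels do not say whether the replicates of a group are independent cultures or animals, so p-values measure a spread that may be technical.

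The lamina is a mesh of intermediate filament proteins that lines the inner nuclear membrane. B-type lamins are present in nearly all cells, whereas the A-type lamins made from Lmna vary between tissues, are low in resting lymphocytes and are known to increase when T cells are activated. Inner membrane proteins such as the lamin B receptor, emerin and LAP2 tie the lamina to chromatin and to the membrane, and SUN proteins bind nesprins across the envelope to join the lamina to the cytoskeleton.

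In the Th9+TLA1 libraries the A-type lamin gene was higher and the more abundant B-type lamin gene, Lmnb1, lower. Syne1 was also lower there, on 2 and 9 reads, but was not called. The remaining genes lay closer to their Th9 levels or were too thinly covered to place. Values are deposited CPM, the share of a library's gene reads in parts per 1000000. Fold changes are log2 values of CPM + 1 after TMM scaling from a limma fit over 10324 genes, Th9+TLA1 over Th9, with n = 2 libraries per group. Genes with an adjusted p (Benjamini-Hochberg) under 0.05 were called. In that fit 1.14% of tested genes were called, 0.891% higher and 0.252% lower. The edgeR quasi-likelihood test on recovered reads called 1.07% (0.804% higher, 0.262% lower) and DESeq2 called 2.64% (1.76% higher, 0.881% lower). Each of the 3 tools called 1 of the 10 genes higher, Lmna, and 1 lower, Lmnb1. In limma, 3 fold changes were positive and 7 negative. Since the genes were proposed with this comparison known, their calls and fold changes are a description, without p-values. All 10 passed the filter on low reads, but Syne1 passed it only through its Th9 libraries.

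Lmna (Entrez 16905, chromosome 3, 88481148 to 88509932 of mm10, minus strand, with all gene positions from RefSeq) encodes lamins A and C, made by alternative splicing and measured here as 1 sum, since the deposited values count reads over whole genes. It had 87.6 and 74.3 CPM in the Th9+TLA1 libraries, against 14.1 and 17.0 CPM in the Th9 libraries. Every Th9+TLA1 value lay far above every Th9 value, with 4.36-fold to 6.21-fold between any library of one group and any of the other. The means were 81.0 ± 9.39 CPM with TLA1 and 15.6 ± 2.08 CPM without (SD, n = 2 each), and the log2 fold change was 2.40 ± 0.31 (SE). Behind these values stood 261 and 229 reads with TLA1 and 57 and 54 reads without. Lmna ranked 24 of 92 called higher genes by size of fold change, and by mean CPM it stood at rank 2977 of 10324 tested genes with TLA1 and at rank 7734 without. Its call was lost without Th9 replicate 2, where the log2 fold change was 2.58, and was kept without any other single library.

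Lmnb1 (Entrez 16906, chromosome 18, 56707813 to 56753424 of mm10, plus strand) encodes lamin B1, a permanently farnesylated lamin. It had 68.1 and 71.4 CPM in the Th9+TLA1 libraries, against 159 and 167 CPM in the Th9 libraries. The groups did not overlap, with replicates close together in each, at 69.8 ± 2.31 CPM with TLA1 and 163 ± 5.65 CPM without (SD, n = 2 each). The fitted log2 fold change was -1.12 ± 0.20 (SE), or 2.18-fold lower on the scale of TMM-scaled CPM + 1. Its mean deposited CPM, before TMM scaling, was 2.34-fold lower. Lmnb1 ranked 23 of 26 called lower genes by size of fold change, and by mean CPM it stood at rank 3404 with TLA1 and at rank 1461 without. The call was lost without Th9 replicate 1, Th9 replicate 2 or TLA1 replicate 2, where the log2 fold changes were -1.21, -1.03 and -1.15, and without a filter on low reads. Lmnb2 (Entrez 16907, chromosome 10, 80901363 to 80918245), which encodes the second B-type lamin, had 25.8 and 24.7 CPM with TLA1, against 36.4 and 25.9 CPM in the Th9 libraries. One Th9 library of Lmnb2 was close to the Th9+TLA1 values and the other above them. Its log2 fold change of -0.18 ± 0.34 was not called, and it was 0.0078 without Th9 replicate 1.

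**Figure D1:**
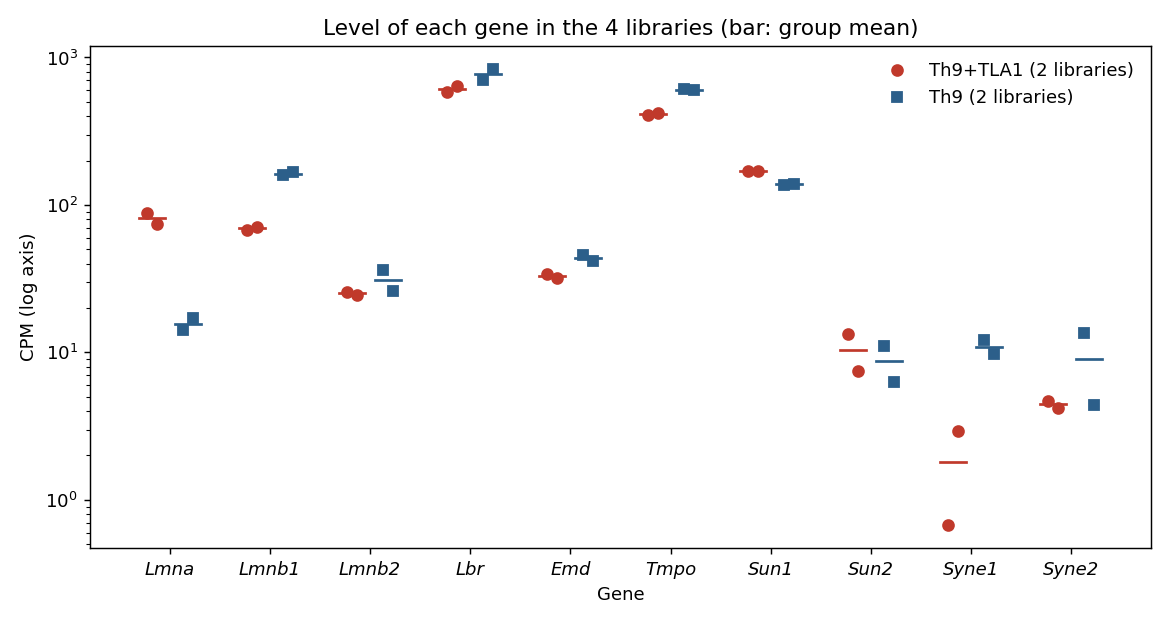
Level of each of the 10 genes in CPM (log axis), with circles for the 2 Th9+TLA1 libraries, squares for the 2 Th9 libraries and a bar at each group mean. Lmna lies at 74.3 to 87.6 CPM with TLA1 and at 14.1 to 17.0 CPM without, while Lmnb1 lies at 68.1 to 71.4 CPM with TLA1 and at 159 to 167 CPM without.

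The ratio of Lmna to Lmnb1 within a library does not depend on how libraries are scaled. It was 1.29 and 1.04 in the Th9+TLA1 libraries, against 0.0885 and 0.102 in the Th9 libraries. In CPM the ratio was thus above 1 in both libraries with TLA1 and at most 0.102 in both libraries without. Per kb of the longest coding transcript it was 1.16 and 0.938 with TLA1, against 0.0797 and 0.0918 without. Which of the 2 genes was higher with TLA1 thus depended on length and library. The log2 difference of the ratio was 3.61, a 12.2-fold change, and 10.2-fold to 14.5-fold between single libraries of the groups. Of the reads in these 2 genes, Lmna took 56.3% (95% exact binomial interval 51.6% to 60.8%) and 51.0% (46.3% to 55.7%) with TLA1, against 8.13% (6.22% to 10.4%) and 9.25% (7.02% to 11.9%) without; these intervals cover counting error only. The interval of each Th9+TLA1 library lay wholly above those of both Th9 libraries. The ratio was chosen together with the genes, with this comparison known, so it is a description without a test.

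The makeup of the lamin transcripts differed more than their sum. The 3 lamin genes together had 182 and 170 CPM with TLA1, against 209.8 and 210.3 CPM without. Per kb of the longest coding transcript they summed to 59.0 and 55.6 CPM per kb with TLA1, against 70.8 and 71.6 CPM per kb without. Of that sum, Lmna made up 47.0% and 42.3% with TLA1, against 6.31% and 7.55% without. Lmnb1 made up 40.6% and 45.1% with TLA1, against 79.1% and 82.2% without. The share of Lmnb2 was 12.4% and 12.6% with TLA1, against 14.5% and 10.2% without, and its groups overlapped. The ratio of Lmnb1 to Lmnb2 was 2.64 and 2.89 with TLA1, against 4.38 and 6.46 without.

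**Figure D2:**
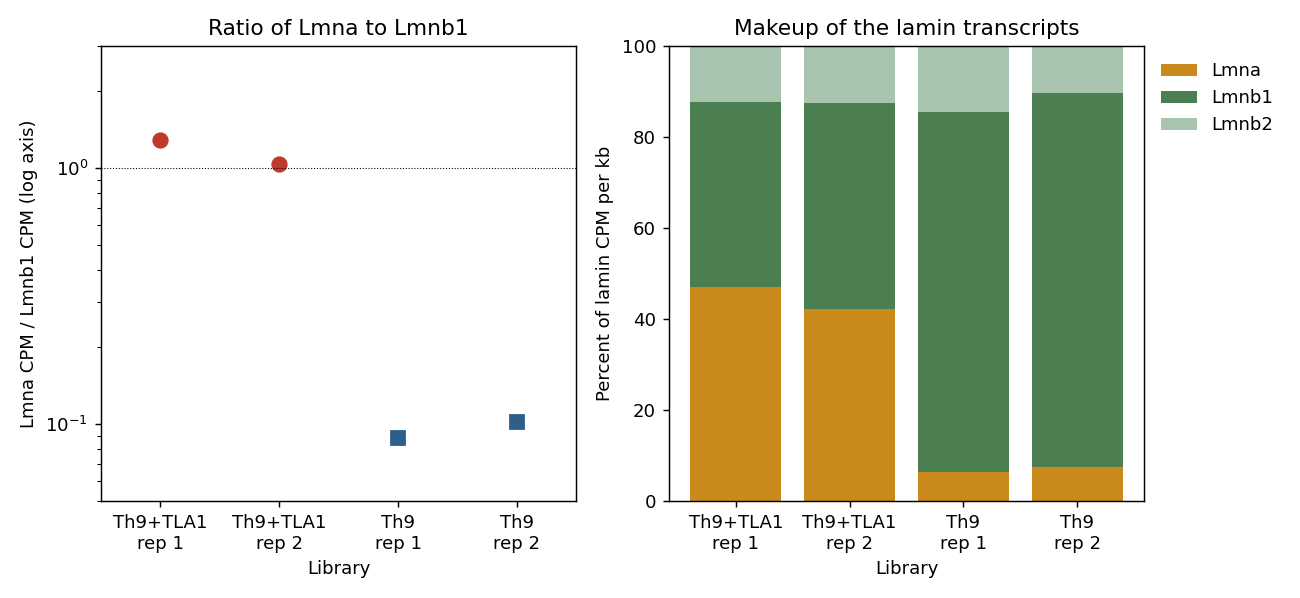
Left, ratio of Lmna CPM to Lmnb1 CPM in each library (log axis, dotted line at 1); right, percent of the summed lamin level, in CPM per kb of longest coding transcript, from Lmna, Lmnb1 and Lmnb2. The ratio is 1.29 and 1.04 with TLA1 and 0.0885 and 0.102 without, and the Lmna share is 42.3% to 47.0% with TLA1 and 6.31% to 7.55% without.

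Among inner membrane proteins, Lbr (Entrez 98386, chromosome 1, 181815315 to 181842401) encodes the lamin B receptor, which binds B-type lamins and heterochromatin protein 1 and has sterol reductase activity. It had 587 and 645 CPM in the Th9+TLA1 libraries, against 700.2 and 839 CPM in the Th9 libraries. The groups did not overlap in deposited CPM, but the gap between them was smaller than that between the Th9 replicates. After TMM scaling the groups overlapped. Its log2 fold change of -0.22 ± 0.18 was not called, and leaving out Th9 replicate 1 gave -0.40 and leaving out Th9 replicate 2 gave -0.039. The span of Dnah14, on the opposite strand, covers 440 exon bases of Lbr, and the kit does not mark strand. That of an rRNA gene, Gm26004, on the strand of Lbr, covers 69 exon bases of Lbr. A pseudogene, Gm14686, spans 343 exon bases of Emd, and a noncoding RNA gene, Gm26765, spans 244 of Tmpo. Whether these bases are also exons of the other genes was not checked. Reads could be split or shared where they are. No exon of another gene overlaps those of the 3 lamin genes.

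Tmpo (Entrez 21917, chromosome 10, 91147571 to 91181752) encodes the LAP2 proteins, which bind lamins and chromatin. It had 406 and 419 CPM with TLA1, against 611 and 598 CPM without. Replicates lay close together and the groups were well apart, 1.43-fold to 1.50-fold between single libraries, yet the log2 fold change of -0.46 ± 0.17 was not called. Emd (Entrez 13726, chromosome X, 74254674 to 74261563) encodes emerin, a LEM-domain protein that binds A-type lamins. It had 33.9 and 31.8 CPM with TLA1, against 45.8 and 41.4 CPM without. The groups did not overlap, and the log2 fold change of -0.31 ± 0.29 was not called. Relative to Tmpo, Lmnb1 stood at 0.168 and 0.171 with TLA1, against 0.261 and 0.280 without, so Lmnb1 differed more than Tmpo in every pairing of libraries.

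Of the SUN genes, Sun1 (Entrez 77053, chromosome 5, 139200564 to 139249839) encodes the SUN protein that binds prelamin A. It had 169.8 and 169.7 CPM with TLA1, against 138 and 139 CPM without. Replicates were almost equal and the groups lay 1.22-fold to 1.23-fold apart. The log2 fold change of 0.38 ± 0.19 was not called. Sun2 (Entrez 223697, chromosome 15, 79724068 to 79742536), which encodes the second widely expressed SUN protein, had 13.4 and 7.46 CPM with TLA1, against 11.1 and 6.31 CPM without. Its groups overlapped, each with 1 library well above the other, and its log2 fold change of 0.31 ± 0.54 was -0.00041 without Th9 replicate 2 and -0.078 without TLA1 replicate 1. Sun1 exceeded Sun2 by 12.7 and 22.7 times in CPM with TLA1, against 12.4 and 22.1 times without. The spans of antisense genes, introns included, cover exon bases of Sun1 (307 bases) and Sun2 (172 bases).

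The nesprin genes had few reads. Syne1 (Entrez 64009, chromosome 10, 5020192 to 5550692) encodes nesprin 1, a giant spectrin-repeat protein with a KASH domain, and had 0.671 and 2.92 CPM with TLA1, against 12.1 and 9.79 CPM without. These are 2 and 9 reads with TLA1, against 49 and 31 reads without. Both Th9+TLA1 values lay under both Th9 values, and 1 of the Th9+TLA1 counts was under 3 reads, the upper limit that a count of 0 allows. The ratio of the groups' summed reads, scaled by depth, was 0.164 (95% exact interval 0.0785 to 0.309, counting error only). Taken over all genes, replicates differed by more than counting error, which was not measured for Syne1 alone. Syne1 also passed the filter only through its Th9 libraries. The interval is thus a description and not a test of the conditions. The fitted log2 fold change of -2.15 ± 0.68 was not called. Syne2 (Entrez 319565, chromosome 12, 75818318 to 76110928), which encodes nesprin 2, had 4.70 and 4.22 CPM with TLA1, against 13.6 and 4.42 CPM without. The groups overlapped because 1 Th9 library lay with the Th9+TLA1 ones. Its log2 fold change of -0.63 ± 0.64 was 0.045 without Th9 replicate 1.

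**Figure D3:**
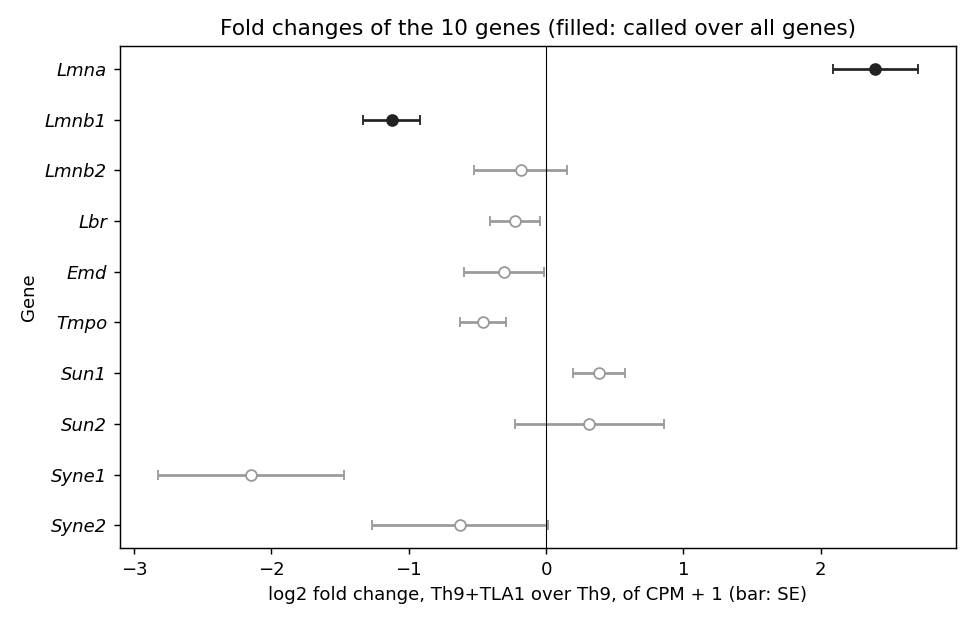
Fold change of each gene as log2 of CPM + 1, Th9+TLA1 over Th9, with its SE from the limma fit; filled points were called over all tested genes. Lmna lies at 2.40 and Lmnb1 at -1.12, and Syne1 at -2.15 has an SE of 0.68.

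The groups did not overlap in 8 of the 10 genes, 2 higher and 6 lower with TLA1. This count and the later counts of overlap use deposited CPM, before TMM scaling. After TMM scaling the groups of Lbr and of Lmnb2, both counted here as lower, overlapped. Over all tested genes they did not overlap in 48.1%, 19.1% higher and 29.0% lower. The median log2 fold change of the 10 genes was -0.27, against -0.01 over all tested genes. The 10 genes summed to 1398 and 1450.1 CPM with TLA1, against 1741 and 1848 CPM without, and most of each sum came from Lbr and Tmpo.

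Levels between genes were compared as CPM per kb of the longest coding transcript. With TLA1 the order was Lbr (176 CPM per kb), Tmpo (109), Sun1 (41.1), Lmna (25.7), Lmnb1 (24.5), Emd (20.6), Lmnb2 (7.15), Sun2 (2.75), Syne2 (0.205) and Syne1 (0.0644). In the Th9 libraries it was Lbr (219 CPM per kb), Tmpo (160.2), Lmnb1 (57.5), Sun1 (33.5), Emd (27.3), Lmnb2 (8.82), Lmna (4.94), Sun2 (2.29), Syne2 (0.415) and Syne1 (0.393). Lmna thus ranked 4 of 10 with TLA1 and 7 of 10 without. The ranges of neighbours overlapped only for Lmna and Lmnb1 with TLA1 and for Syne2 and Syne1 in the Th9 libraries. Per kb of all annotated exons, Lmna ranked 5 with TLA1 and 7 without, and Lmnb1 ranked 3 with TLA1 and 2 without. On that length the ranges of Lmna and Emd overlapped with TLA1, and in the Th9 libraries those of Lmnb1 and Tmpo, of Sun1 and Emd, and of Syne2 and Syne1. The Syne1 and Syne2 transcripts taken as their length have 27908 and 21704 bases, and shorter products of Syne1 would have a higher level per kb than given.

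The promoter of Lmna is shown because this gene had the largest fold change of the 10 genes in the main limma fit. In edgeR and DESeq2 the fold change of Syne1, on few reads, was slightly larger. The promoter of Lmnb2 is shown beside that of Lmna, as a lamin gene that was not called. RefSeq promoter windows of build GRCm38.p6, 250 bases before to 50 after a start, were found for 9 of the 10 genes. Lmnb1 had no window and was not searched. Starts are numbered among those with a window, and the upstream end of Lmna at 88509932 had none. Capitals mark matches to SP1 GGGCGG, NF-Y CCAAT or AP-1 TGANTCA on either strand. CRE TGACGTCA, E2F TTTCCCGC and TTTGGCGC, and CHR TTTGAA were also searched. Of the bases before a start, only those outside annotated exons are shown. The stretch before the first Lmna start, at 88503352, therefore stops short of it, since an Lmna exon lies in between. The stretches lie at chr3:88503387-88503602 (before the first Lmna start, in an intron of a transcript that begins further upstream), chr3:88503303-88503332 (30 bases after that start, in the 5′ UTR of the first exon), chr3:88493313-88493562 (before the second Lmna start, in an intron of the longer transcripts) and chr10:80918246-80918495 (before the first Lmnb2 start), all on the minus strand.
Lmna start 1, before: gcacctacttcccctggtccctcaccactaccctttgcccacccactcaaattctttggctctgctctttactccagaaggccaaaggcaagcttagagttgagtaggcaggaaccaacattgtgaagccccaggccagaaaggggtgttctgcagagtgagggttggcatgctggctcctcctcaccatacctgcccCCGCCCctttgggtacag
Lmna start 1, after: gcctctgcctggctgtcagTGACTCAgtgt
Lmna start 2, before: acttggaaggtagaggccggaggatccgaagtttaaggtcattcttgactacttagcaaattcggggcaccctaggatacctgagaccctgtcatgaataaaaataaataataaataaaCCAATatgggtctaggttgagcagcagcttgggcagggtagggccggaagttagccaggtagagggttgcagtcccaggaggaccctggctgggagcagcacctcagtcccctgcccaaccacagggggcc
Lmnb2 start 1, before: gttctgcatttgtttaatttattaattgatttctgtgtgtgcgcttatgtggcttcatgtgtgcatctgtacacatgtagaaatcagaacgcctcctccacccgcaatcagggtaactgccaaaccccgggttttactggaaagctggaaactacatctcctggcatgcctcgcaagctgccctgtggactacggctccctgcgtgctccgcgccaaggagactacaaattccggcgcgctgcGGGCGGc
The AP-1 letters are the pattern that factors such as BATF share with other AP-1 proteins. They begin 40 bases after Lmna start 1, and 7.81% of all 32851 promoter windows hold them. Lbr, whose window holds the same pattern 48 bases before its start, was the other gene of the 9 with a match. The SP1 letters occur in 35.7% of windows and CCAAT in 37.4%. A match describes letters in a window and is not a binding site.

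Further genes came from 8 lists of 118 genes, which covered the nuclear envelope, actin and SRF genes and proliferation markers. The lists were chosen with earlier results of these data known, so their counts and adjusted p-values are a description. Of the 118 genes, 111 were tested, and few of them were called. In the limma fit 2 of the 111 were called, which is 1.80% beside 1.14% of all tested genes. Both were lower with TLA1, the pore gene Ndc1 and the proliferation marker Mki67. As background for the counts that follow, 16.7% of all tested genes had an unadjusted p under 0.05 in limma and 51.1% had a negative fold change. Among 30 nuclear pore genes, Ndc1, which encodes a membrane nucleoporin that anchors the pore, fell to 33.6 and 40.9 CPM with TLA1, against 102 and 95.03 CPM without (log2 fold change -1.30 ± 0.25 SE, limma adjusted p = 0.0306). Ndc1 was not called without Th9 replicate 1 (limma adjusted p = 0.178), without Th9 replicate 2 (0.177) or without a filter on low reads (0.0709). Ndc1 was the 1 pore gene called of the 30. Of these genes 25 had a negative fold change, beside 51.1% of all tested genes, and 17 were lower without overlap of the groups, beside 29.0% of all tested genes. Their median log2 fold change was -0.35, against -0.01 over all tested genes.

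Enzymes that farnesylate and trim prelamin A (Fnta, Fntb, Rce1, Icmt, Zmpste24) were not called in limma (0 of 5 tested, 0 at an unadjusted p under 0.05, 0 with edgeR or DESeq2). Fnta, the most abundant, had 121 and 108 CPM with TLA1, against 133 and 143 CPM without. Other LEM-domain and inner membrane proteins were also not called (0 of 12 tested, 0 at an unadjusted p under 0.05, 0 with edgeR or DESeq2), and Dhcr7, a sterol reductase related to the lamin B receptor, had 83.6 and 79.2 CPM with TLA1, against 87.3 and 113 CPM without. Among 9 chromatin partners of lamins and LEM proteins 0 were called in limma, edgeR or DESeq2 and 3 had an unadjusted p under 0.05 (16.7% of all tested genes did); Cbx3, which encodes a heterochromatin protein 1, had 203.4 and 226 CPM with TLA1, against 332 and 318 CPM without (log2 fold change -0.51 ± 0.17 SE, limma adjusted p = 0.183).

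Of 12 other SUN, KASH and torsin genes 7 were tested, with 0 called in limma or edgeR, 1 at an unadjusted p under 0.05 and 1 called in DESeq2. That gene was Lrmp, a KASH-domain protein of lymphoid cells, named after its values were seen, with 48.3 and 35.4 CPM with TLA1, against 153 and 73.2 CPM without (log2 fold change -1.24 ± 0.32 SE, limma adjusted p = 0.0999). Tor1a, which encodes the envelope ATPase torsin A, had 131 and 114 CPM with TLA1, against 76.7 and 110 CPM without. Among 17 genes of envelope breakdown and resealing 0 were called in limma, edgeR or DESeq2 and 5 had an unadjusted p under 0.05, beside 16.7% of all tested genes. The largest fold change there was that of Lpin2, a lipin phosphatase, also named after its values were seen, with 11.7 and 5.52 CPM with TLA1, against 31.2 and 28.7 CPM without (log2 fold change -1.68 ± 0.46 SE, limma adjusted p = 0.117). Cdk1, the mitotic kinase that phosphorylates lamins, had 172 and 179 CPM with TLA1, against 229 and 215 CPM without (log2 fold change -0.24 ± 0.18 SE). Of 17 tested actin and SRF genes linked to the LINC complex 0 were called in limma or edgeR, 1 in DESeq2 and 3 at an unadjusted p under 0.05, beside 16.7% of all tested genes, and Actg1, a cytoplasmic actin, had 4454 and 4213 CPM with TLA1, against 2911 and 4391 CPM without. The gene called in DESeq2 was Vim, an intermediate filament gene of the cytoplasm, named after its values were seen, with 3721 and 3846 CPM with TLA1, against 1891 and 2757 CPM without (log2 fold change 0.82 ± 0.23 SE, limma adjusted p = 0.120).

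**Figure D4:**
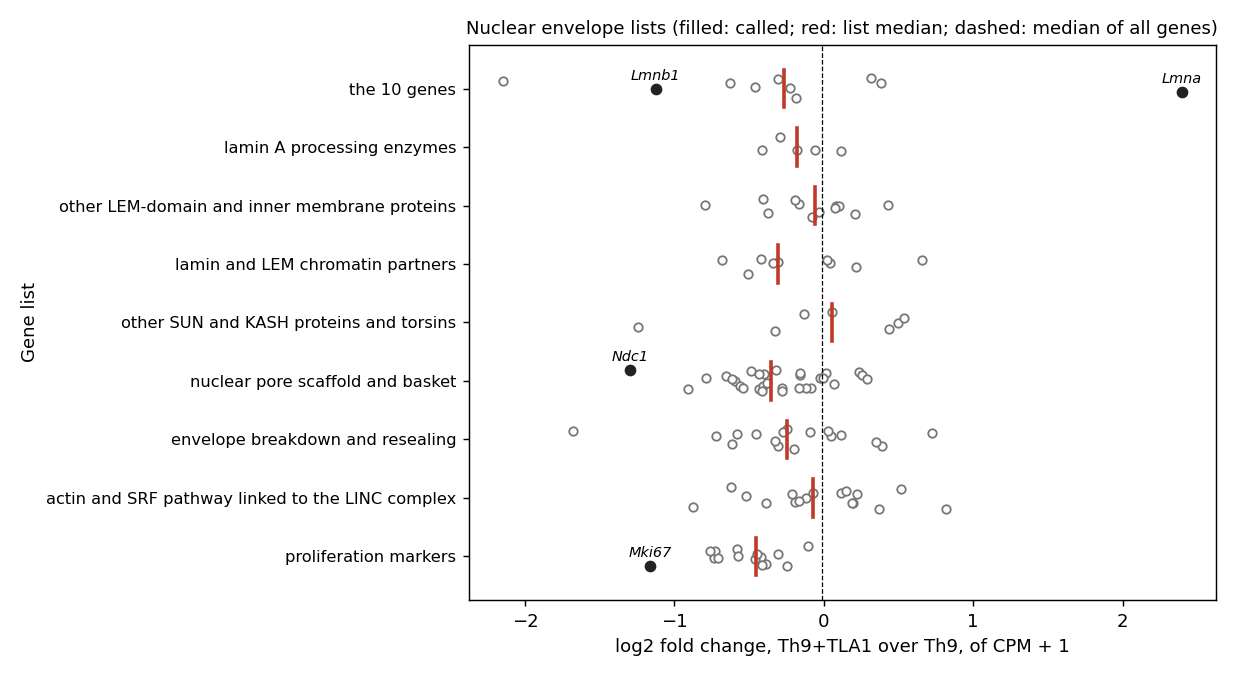
Fold changes, as log2 of CPM + 1 for Th9+TLA1 over Th9, of the 10 genes and of 8 further lists, one point per tested gene; filled points were called, red bars are list medians and the dashed line is the median of all tested genes. Lmna, at 2.40, lies to the right of every other plotted gene, and all 16 proliferation markers lie left of 0.

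Of 16 proliferation markers 1, Mki67, was called lower in limma, 0 in edgeR and 4 in DESeq2. All 16 had a negative log2 fold change, beside 51.1% of all tested genes, and 15 were lower without overlap of the groups, beside 29.0%. Their median log2 fold change was -0.45, against -0.01 over all tested genes. Their summed level was 3095 and 3369 CPM with TLA1, against 5569 and 4518 CPM without. Mki67, which encodes the proliferation antigen Ki-67, fell to 197 and 249.9 CPM with TLA1, against 721 and 389 CPM without (log2 fold change -1.16 ± 0.25 SE, limma adjusted p = 0.0464). That call was lost without Th9 replicate 1 (log2 fold change -0.76, limma adjusted p = 0.216), Th9 replicate 2 (0.0803) or TLA1 replicate 2 (0.0669), with total count scaling (0.0696), without a filter on low reads (0.129), with a pseudocount of 0.5 (0.0535) and in edgeR (0.0516). The part of proliferation in the Lmnb1 and Ndc1 differences was not tested.

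Depth and markers of cell types were compared between the libraries. Reads in genes came to 2979482 and 3081187 with TLA1, against 4041633 and 3167270 without, and 3 reads, the upper limit that a count of 0 allows, correspond to 0.742 to 1.01 CPM. All 7 T cell markers were present, summing to 2552 to 2606 CPM with TLA1 and 2081 to 2242 CPM without. The 27 measured markers of other cell types summed to 72.1 to 93.3 CPM with TLA1 and 47.3 to 55.6 CPM without, and 14 of them, among them Lyz2, Csf1r, Col1a2 and Col3a1, had no read in any library. Macrophage markers summed to 4.54 to 7.72 CPM with TLA1, all from Cd68, and to 1.89 to 3.22 CPM without. They did not move together, since Adgre1 and Itgam had reads in Th9 libraries only. Adgre1 had 1.98 and 0.316 CPM there. B cell markers summed to 28.9 to 29.2 CPM with TLA1 and 10.4 to 12.9 CPM without, mostly Cd79b. The part of macrophages or B cells in the Lmna difference was not tested. In bulk RNA, fewer cells of a type and less RNA per cell cannot be told apart.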

How the data were processed

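The authors deposited CPM values, 1 file per library. HTSeq 0.5.4, edgeR and build mm10 are listed in the submitters' processing notes, and no source used here gives the aligner, annotation or strand setting. Per the labels' protocols, cDNA was made with a SMARTer low-input kit and sequenced on the Ion Torrent platform. Deposited values were whole multiples of 1 read: 100% gave whole reads within 0.01 of a read. EdgeR's quasi-likelihood test on those reads called 110 genes. RefSeq (GRCm38.p6) matched 23383 of 23480 identifiers. Genes were filtered with filterByExpr (minimum count 10). CPM were scaled by TMM, and log2(CPM + 1) was fitted with limma (group only, eBayes with trend). The test was checked on simulated data. Replicates differed by 7.54 (Th9+TLA1) and 12.2 (Th9) times sampling noise (chi-square per degree of freedom), so none was a copy. The members and lists were chosen with earlier results of these data known. All 10 members are named, and per list up to 3 called genes by p or, with none, the most abundant. Fits ran in limma 3.58.1 (R 4.3.3), with DESeq2 1.42.0 and edgeR 4.0.16 as alternatives; other values came from Python 3.11.15 with scipy 1.17.1.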

Additional observations from a re-analysis of the deposited data

How the results depend on the processing

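The Lmna to Lmnb1 log2 difference of 3.61 was 3.52 with CPM + 1 and 3.45 to 3.76 with 1 library left out, and length or the replicate block cannot change it by construction. The 118 called genes became 73 with total count scaling, 33 without a filter, 273 with DESeq2 and 225 with the replicate block, and 19 to 155 with 1 library left out (42 without Th9 replicate 1, 19 without Th9 replicate 2). Called members became 1 without a filter and 0 to 2 with 1 library left out. Same-numbered libraries did not deviate together (correlation -0.011 over 10324 genes), and the labels give no pairing, so the replicate block is an alternative only; it kept the calls of Lmna and Lmnb1. Total count scaling moved the median log2 fold change of all genes to -0.10, against -0.01 with TMM, and turned no member's direction. Called SUN, KASH and torsin genes became 1 with DESeq2 or the replicate block (0 to 1 with 1 library left out), pore genes 0 without a filter and 2 with the replicate block (0 to 2), and actin genes 1 with DESeq2 (0 to 1). Called proliferation markers became 0 with total count scaling, no filter, pseudocount 0.5 or edgeR, and 4 with DESeq2 (0 to 1 with 1 library left out). Breakdown genes ran from 0 to 1 with 1 library left out. With 1 library left out, log2 fold changes ran from -0.37 to 0.0078 for Lmnb2, -0.078 to 0.71 for Sun2, -1.29 to 0.045 for Syne2 and -0.42 to 0.044 for Dhcr7. A group left with 1 library was assumed to vary like the other. Counts of 2 to 55 reads for Sun2, Syne1 and Syne2 limit what could be seen of them. The cause of these shifts was not tested.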
